A study of Mus musculus with 2 samples.

Results

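Collagens are built from 3 alpha chains, each the product of its own gene, and the chains that a cell makes decide which trimers it can assemble. Every gene whose symbol has the form Col, number, a, number was taken, which gave 44 collagen chain genes of the 27998 genes in the files. They were followed in mononuclear cells of C57BL/6J mouse quadriceps and diaphragm, with no other genotype and no treatment named in the labels and no age given there. Each tissue gave 1 single-cell library made from cells of several animals that had been combined, so tissue, pool of animals and library cannot be told apart and no test between tissues could be made. The tissue had been digested with collagenase and dispase, passed over a density gradient, and sorted only by light scatter.

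Fibrillar collagens (types I, II, III, V, XI, XXIV and XXVII) form the load-bearing fibrils of tendon and of the connective tissue around muscle fibers. Type IV chains form the network of the basement membrane that surrounds muscle fibers, vessels and nerves, and type VI chains form beaded filaments next to it. Other families decorate fibrils (types IX, XII, XIV, XVI, XIX, XX and XXII), carry sugar chains near basement membranes (types XV and XVIII) or span the cell membrane (types XIII, XVII, XXIII and XXV). Fibro-adipogenic progenitors (FAPs) are the main matrix-producing cells of resting muscle.

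Cells were placed in classes by raw counts of unique molecular identifiers (UMIs, each standing for 1 captured transcript) of 8 marker genes per class, none of them a collagen gene. A cell joined the class with the most markers at 2 or more UMIs if there were at least 3 such markers and more than for any other class. In quadriceps this gave 2545 FAP-like, 98 tenocyte-like, 1246 smooth muscle-like, 172 Schwann-like and 93 satellite-like cells, with 52 endothelial-like and 457 immune-like cells as references. In diaphragm it gave 2143 FAP-like, 47 smooth muscle-like and 136 immune-like cells. The diaphragm held 0 tenocyte-like, 2 Schwann-like, 10 satellite-like and 9 endothelial-like cells, under the minimum of 20 cells, so these classes are described for quadriceps alone. The median cell had 8 of its 8 class markers in FAP-like, 6 in tenocyte-like and smooth muscle-like, 7 in Schwann-like and 4 in satellite-like cells. Of the 93 satellite-like cells, 47 led by 1 marker or had just the minimum of 3 markers. With a required margin of 2 markers, 69 satellite-like cells remained. Among the smooth muscle-like cells of quadriceps, Acta2 was at 2 or more UMIs in 99.8% and Myh11 in 99.04% of cells. The pericyte marker Rgs5 was so in 2.09%, and Notch3, from the same marker list, in 90.5%. Rgs5 was at 2 or more UMIs in 17.0% of the smooth muscle-like cells of diaphragm. Whether the class holds pericytes was not tested.

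Levels are the summed UMIs of a class, per 1000000 UMIs of that class (CPM), with the exact 95% Poisson interval, which covers counting error only and not the spread between animals. Because a UMI counts a transcript and not its length, levels of different chains were set side by side without length correction, although capture can differ between transcripts. The quadriceps library held 5159 barcodes and 50854519 UMIs and the diaphragm library 2499 barcodes and 28545242 UMIs, and 5 cell barcodes were in both. Median UMIs per cell ran from 2595 in endothelial-like to 14376 in smooth muscle-like cells of quadriceps, and the FAP-like cells had medians of 10447 in quadriceps and 12410 in diaphragm.

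Of the 44 chains, 29 reached 50 CPM in at least 1 class of 20 or more cells. A further 9 peaked between 10 and 50 CPM, and 6 stayed below 10 CPM. The 29 chains were divided among the classes: 14 were highest in FAP-like cells, 10 in tenocyte-like, 3 in Schwann-like, 1 in smooth muscle-like and 1 in endothelial-like cells. Collagen transcripts took 2.29% of all UMIs in quadriceps FAP-like cells and 2.28% in diaphragm FAP-like cells. The share was 4.46% in tenocyte-like cells, 0.405% in Schwann-like, 0.239% in satellite-like and 0.185% in smooth muscle-like cells. In immune-like cells, which should lack fibrillar collagen, it was 0.0241% in quadriceps and 0.0181% in diaphragm. Free RNA gives UMIs in every droplet. Over 19 chains the immune-like level had a median of 1.03% of the FAP-like level in quadriceps and 0.884% in diaphragm, and levels near it were read as background.

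**Figure D1:**
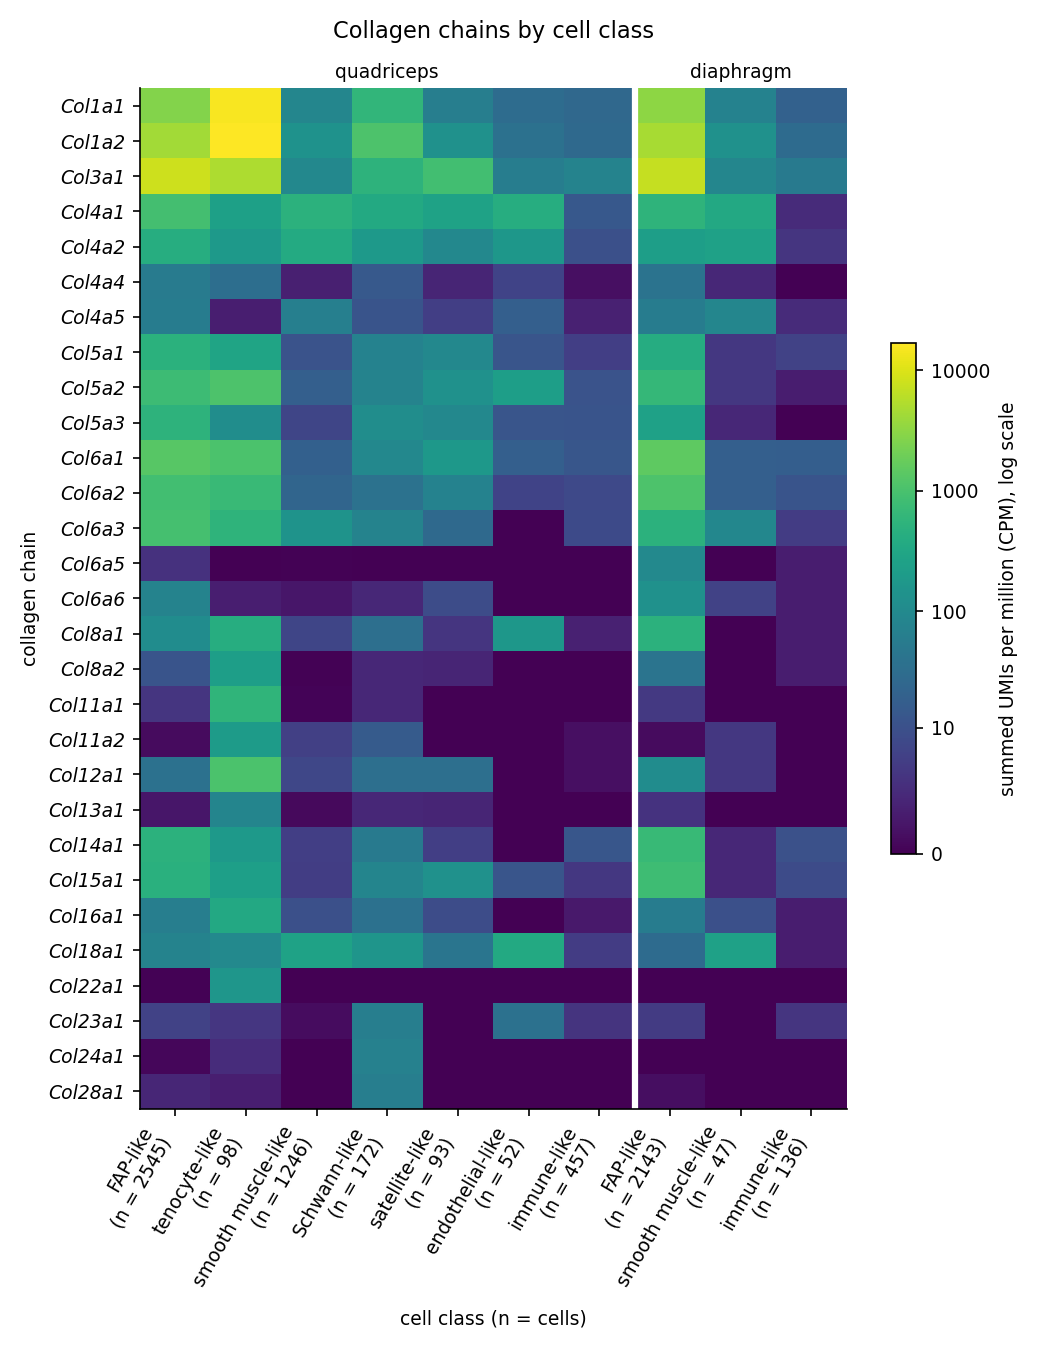
Level of the 29 chains that reached 50 CPM (vertical axis) in each class with at least 20 cells (horizontal axis), quadriceps left of the white line and diaphragm right of it, with colour giving CPM on a log scale. The type I and type III chains are brightest in FAP-like and tenocyte-like cells, and Col22a1, Col24a1 and Col28a1 are each bright in a single class.

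FAP-like cells of both muscles were dominated by the same 3 fibrillar chains. Col3a1, the single chain of type III collagen, had 7845 CPM in quadriceps (95% interval 7812 to 7878) and 7055 CPM in diaphragm (7023 to 7087), which was 34.3% and 30.9% of all collagen UMIs of these cells. Col1a2 had 4360 and 4742 CPM, and its partner Col1a1 had 2792 and 3180 CPM. Type I collagen is usually assembled from 2 copies of the Col1a1 product and 1 of Col1a2, yet the ratio of Col1a1 to Col1a2 UMIs was 0.640 (0.634 to 0.646) in quadriceps and 0.671 (0.665 to 0.677) in diaphragm. Thinned to 1000 UMIs per cell so that depth was equal, 98.2% of FAP-like cells in quadriceps and 97.1% in diaphragm kept a Col3a1 UMI, against 9.63% and 6.62% of immune-like cells.

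The type VI filament chains followed. Col6a1 had 1324 CPM in quadriceps and 1476 CPM in diaphragm, and Col6a2 had 892 and 1095 CPM. Col6a3, the long chain that joins them in the trimer, had 931 CPM in quadriceps but 521 CPM in diaphragm. Its ratio to Col6a2 was thus 1.04 (1.03 to 1.06) in quadriceps and 0.476 (0.466 to 0.485) in diaphragm, with intervals that did not overlap. Among the basement membrane chains, Col4a1 had 910 and 559 CPM and Col4a2 had 426 and 233 CPM. The minor fibrillar chains Col5a1, Col5a2 and Col5a3 lay between 256 and 792 CPM in both muscles. Col14a1, a fibril-associated chain, had 522 and 706 CPM, and Col15a1, a basement membrane-associated chain, had 478 and 799 CPM.

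Most of the chains compared between diaphragm and quadriceps FAP-like cells lay within 2-fold. A chain was compared where it had at least 50 CPM in the higher group and was called where CPM plus 1 differed by 2-fold or more. Of 21 chains compared, 3 were higher in diaphragm, where 3.68% of all 3315 genes compared were called higher. 2 chains were lower, against 3.11% of all genes, and 16 lay within 2-fold. The median log2 difference was 0.00 over the chains and -0.10 over all genes compared.

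Col6a5, a type VI chain that can take the place of Col6a3, showed the widest gap. It had 80 UMIs in quadriceps FAP-like cells, a level of 2.94 CPM (2.33 to 3.66), and 2529 UMIs in diaphragm, a level of 95.02 CPM (91.3 to 98.8). The ratio was 32.3 (25.8 to 40.9). Col8a1, a short-chain network collagen, had 114 CPM in quadriceps and 516 CPM in diaphragm, a ratio of 4.54 (4.37 to 4.73). Col12a1, which is bound to fibril surfaces in tendon and fascia, had 36.0 and 113 CPM, a ratio of 3.13 (2.91 to 3.37). When classes were drawn from clusters, which formed no tenocyte-like class, the log2 difference of Col12a1 fell to 0.74 and it was no longer called. In the other direction, Col18a1, a basement membrane chain whose end fragment is endostatin, had 75.5 CPM in quadriceps and 28.6 CPM in diaphragm, 2.64 times lower. Col5a3 had 532 and 256 CPM, 2.08 times lower in diaphragm.

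Markers of other classes moved with this comparison. Over the FAP-like cells the 8 tenocyte markers summed to 365 CPM for quadriceps and 1662 CPM for diaphragm. Of these sums Thbs4 alone was 168 and 1514 CPM. Tnmd (40.2 and 76.8 CPM) and Mkx were also higher in diaphragm. The others were lower there: Comp (83.2 and 37.0 CPM), Fmod (63.4 and 30.1 CPM), Kera, Cilp2 and Scx. The sum of the 8 smooth muscle markers was lower in diaphragm, at 1233 CPM for quadriceps and 38.2 CPM for diaphragm. Acta2 made up 609 CPM and Tagln 359 CPM of the quadriceps sum. The 8 Schwann markers summed to 73.2 and 23.6 CPM. Of the chains called lower in diaphragm, Col18a1 was also higher in smooth muscle-like than in FAP-like cells. The part of these transcripts in the chain differences was not tested. Values within groups of FAP-like cells are given after the classes. The smooth muscle-like cells of the muscles showed no called chain: 0 of 8 compared, where 4.97% of 2837 genes were called higher in diaphragm and 1.3% lower, with the 47 diaphragm cells leaving wide intervals. Col18a1, for instance, had 268 CPM in quadriceps and 261 CPM in diaphragm smooth muscle-like cells, a ratio of 0.973 (0.812 to 1.16).

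**Figure D2:**
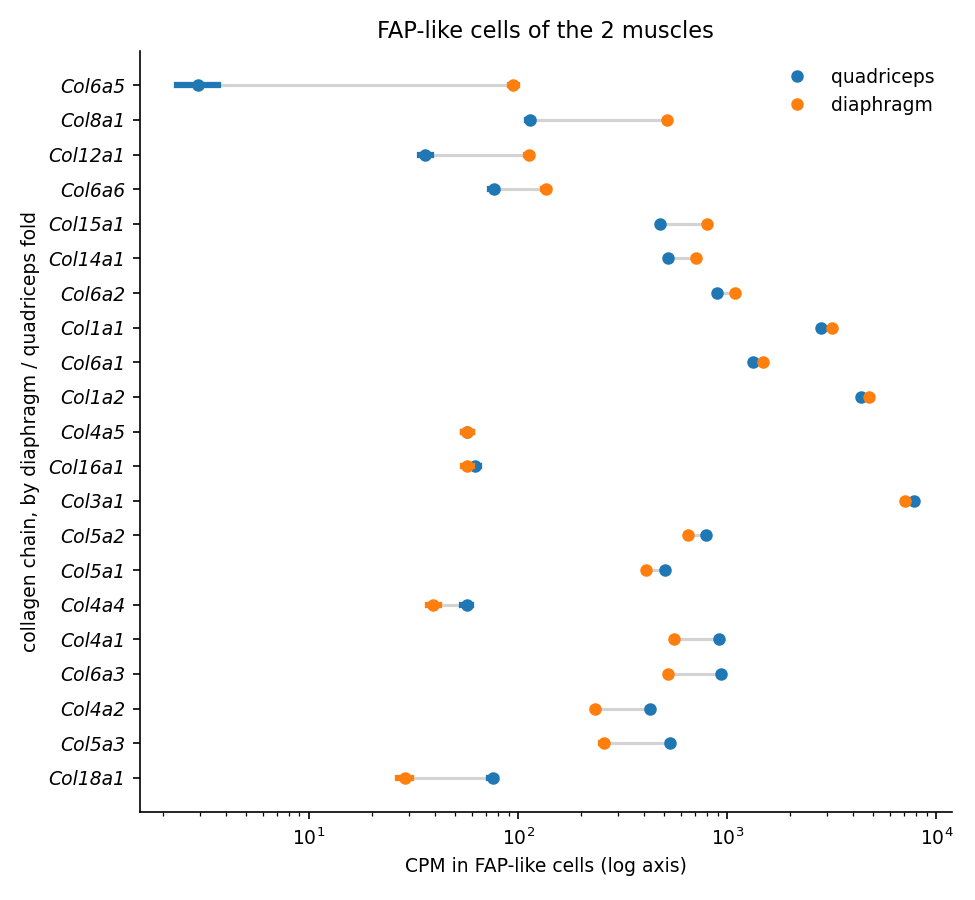
Level of each of the 21 compared chains in FAP-like cells of quadriceps (blue) and diaphragm (orange), in CPM on a log axis, with thick bars for 95% counting intervals and chains ordered by the ratio. Col6a5 at the top goes from 2.94 to 95.02 CPM, and most chains sit close together.

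The Col6a5 and Col8a1 genes lie on different chromosomes, and the 250 bases before their start sites are given as the sequence next to the chains that were highest in diaphragm relative to quadriceps. Sequences are from RefSeq on GRCm38.p6, read on the strand of the gene and ending at the last base before the start site, and no annotated exon overlaps them. Capitals mark GGGCGG or its reverse complement CCGCCC, the GC box.

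Col6a5, chr9:105960644-105960893, minus strand: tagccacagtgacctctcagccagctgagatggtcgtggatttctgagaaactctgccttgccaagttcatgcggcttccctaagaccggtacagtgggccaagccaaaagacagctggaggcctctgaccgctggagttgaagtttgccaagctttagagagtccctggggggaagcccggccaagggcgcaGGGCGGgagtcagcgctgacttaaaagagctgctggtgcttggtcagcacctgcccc
Col8a1, chr16:57754738-57754987, minus strand: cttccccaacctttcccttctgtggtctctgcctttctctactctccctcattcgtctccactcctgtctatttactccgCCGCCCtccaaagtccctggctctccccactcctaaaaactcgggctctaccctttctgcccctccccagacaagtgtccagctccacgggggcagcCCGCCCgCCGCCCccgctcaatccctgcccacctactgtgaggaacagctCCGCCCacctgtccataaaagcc

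The Col6a5 window held 1 GC box and the Col8a1 window held 4. Over all 32851 windows of this length, 32.74% held at least 1, as did 22 of the 38 collagen windows. TATAAA, found on either strand in 12.37% of all windows, and CCAAT, in 33.85%, were in neither window. RefSeq entries in the table covered 35 of the 44 chains.

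Tenocyte-like cells, marked by Tnmd, Thbs4 and Fmod, carried the highest level of type I collagen. Col1a2 reached 16645 CPM (16366 to 16927) and Col1a1 14912 CPM (14648 to 15179), which were 3.82 and 5.34 times the FAP-like levels of quadriceps. Together with Col3a1 at 5049 CPM, these chains made up 37.3%, 33.4% and 11.3% of the collagen UMIs. The ratio of Col1a1 to Col1a2 was 0.896 (0.874 to 0.918), above that in FAP-like cells, and the ratio of Col3a1 to Col1a1 was 0.339 against 2.81.

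Of 25 chains compared between tenocyte-like and FAP-like cells, 10 were higher, where 7.09% of 3496 genes were called higher, and 6 were lower, against 12% of genes. The chains with the widest gaps were ones hardly seen in FAP-like cells. Col11a1, a minor fibrillar chain of cartilage and tendon, had 586 CPM (535 to 641) in tenocyte-like cells and 3.42 CPM in FAP-like cells. Its partner Col11a2 had 205 CPM, from 168 UMIs, against 9 UMIs in all FAP-like cells. Col22a1, a chain known from the junction of muscle and tendon, had 133 UMIs, or 163 CPM (136 to 193), against 2 UMIs in FAP-like cells, a ratio of 2211 with a counting interval of 600.1 to 18444. These UMIs came from few cells: 8.16% of the 98 tenocyte-like cells had a Col22a1 UMI at full depth. After thinning to 1000 UMIs, 7.14% kept one.

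Col12a1 had 1075 CPM, 29.8 times the FAP-like level, and after thinning 62.2% of tenocyte-like cells kept a UMI of it against 2.79% of FAP-like cells. Col13a1, a membrane-spanning chain, had 83.2 CPM (ratio 103, interval 62.7 to 175). Col8a2 had 235 CPM (ratio 20.3), Col16a1 had 358 CPM (ratio 5.78) and Col8a1 had 428 CPM (ratio 3.77). Of the 6 lower chains, 3 were type IV chains. Col4a1 at 252 CPM was 3.61 times lower and Col4a2 at 182 CPM 2.34 times lower than in FAP-like cells. Col5a3 was 4.53 times and Col14a1 2.81 times lower. Col4a5 and Col6a6 had 1 UMI each, ratios of 0.0214 (interval up to 0.119) and 0.0160 (interval up to 0.0895).

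The minor fibrillar chains did not move as a unit. Col5a2 was at 1104 CPM, 1.39 times the FAP-like level, while Col5a1 was at 295 CPM, 1.71 times lower, so the ratio of Col5a1 to Col5a2 was 0.267 (0.231 to 0.308) against 0.635 (0.621 to 0.649) in FAP-like cells. FAP markers summed to 1476 CPM in tenocyte-like cells, 14.4% of their FAP-like level, with 0 of the 8 without UMIs, and their part in these levels was not tested. Tenocyte markers in quadriceps FAP-like cells summed to 1.07% of their tenocyte-like level.

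The upstream window of Col11a1 is given as the chain whose level separated tenocyte-like from FAP-like cells at high UMI counts in this class and in the Tnmd group of FAP-like cells given later. Capitals mark GC boxes and a CCAAT box, here as its reverse complement ATTGG.

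Col11a1, chr3:114030290-114030539, plus strand: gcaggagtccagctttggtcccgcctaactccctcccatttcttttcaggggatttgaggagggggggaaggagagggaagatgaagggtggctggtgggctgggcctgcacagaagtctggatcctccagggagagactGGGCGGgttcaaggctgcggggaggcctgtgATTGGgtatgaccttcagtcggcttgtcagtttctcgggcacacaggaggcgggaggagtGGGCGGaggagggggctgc

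Its GC boxes began 110 and 19 bases before the start site and its CCAAT box 79 bases before it, and it held no TATAAA.

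**Figure D3:**
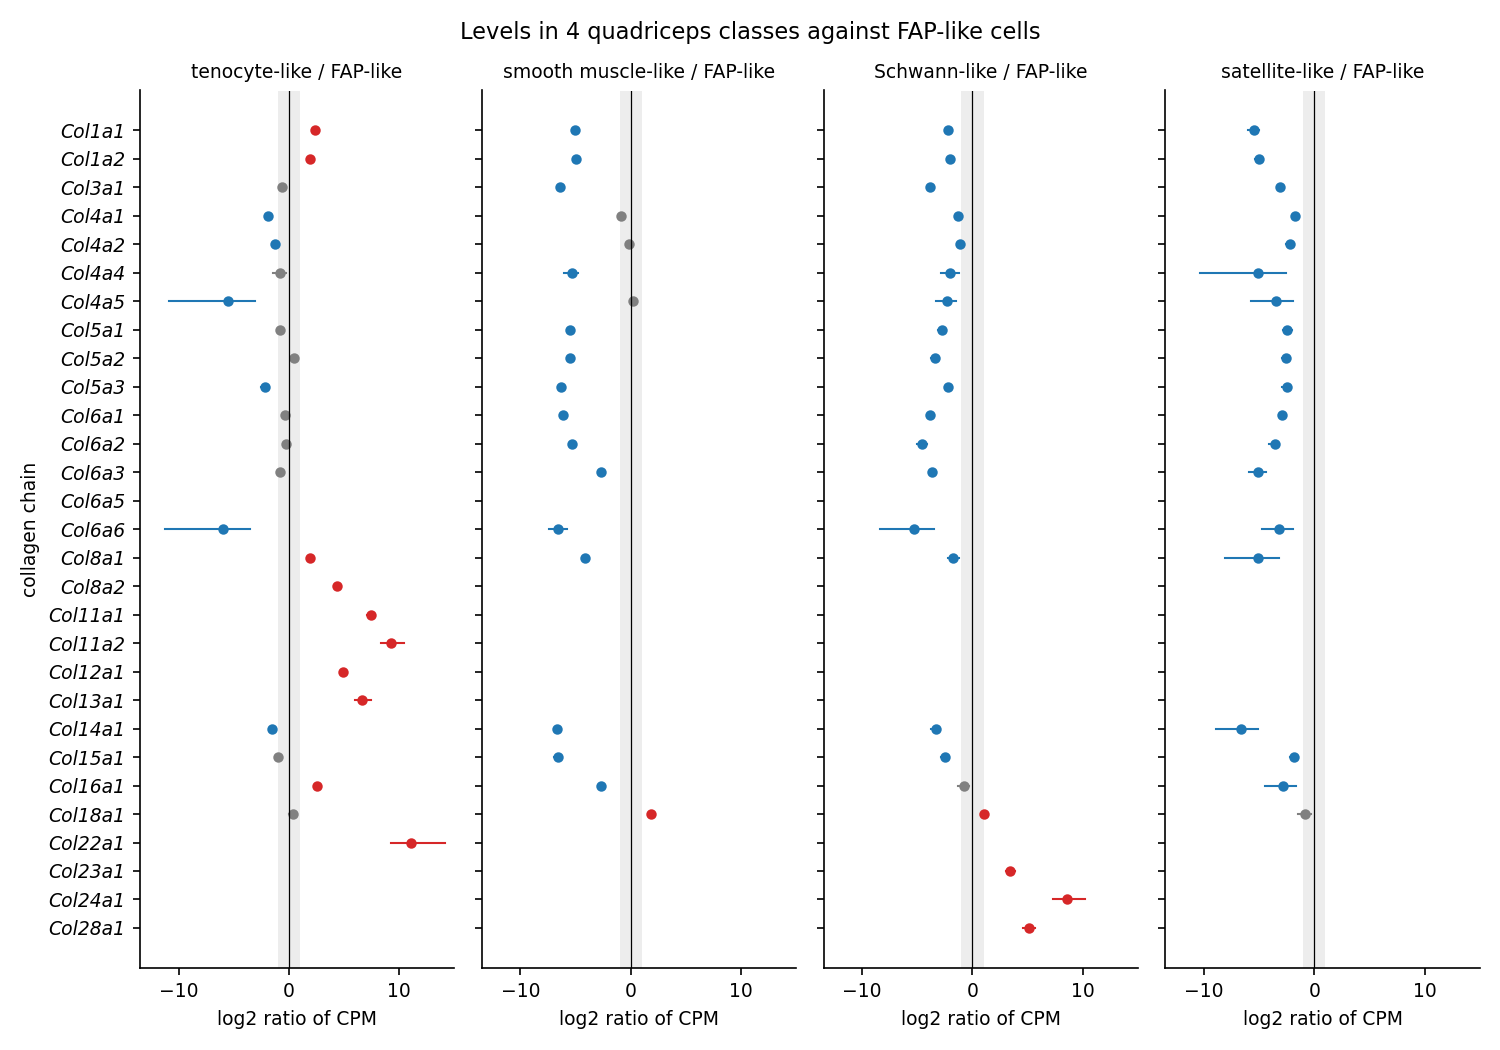
Ratio of the level in tenocyte-like, smooth muscle-like, Schwann-like and satellite-like cells of quadriceps to that in FAP-like cells, on a log2 axis, for chains with at least 50 CPM in the higher class. Red marks chains called higher, blue lower and grey within 2-fold, lines are 95% counting intervals, and the grey band is 2-fold. Only the tenocyte-like panel has 10 red points, while the satellite-like panel has none.

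In smooth muscle-like cells of quadriceps the type IV chains Col4a1 and Col4a2 had the highest levels. Col4a1 had 506 CPM (496 to 517) and Col4a2 380 CPM (371 to 389), and with Col18a1 at 268 CPM they made up 27.4%, 20.5% and 14.5% of the collagen UMIs of the class. Of 19 chains compared with FAP-like cells of quadriceps, 1 was higher, where 17.8% of 3724 genes were called higher, and 15 were lower, against 30.9% of genes. The higher chain was Col18a1, with a ratio of 3.55 (3.37 to 3.74). In diaphragm it was again the 1 higher chain of 20 compared, with a ratio of 9.10 (7.51 to 10.96), where 20.2% of 3679 genes were called higher; 16 chains were lower, against 31.1% of genes. The 3 chains within 2-fold were Col4a1, Col4a2 and Col4a5 in both muscles.

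Col4a5, the chain that pairs with Col4a6 in smooth muscle basement membranes, had 66.5 CPM in quadriceps and 84.3 CPM in diaphragm. Col4a6 itself had 408 UMIs in quadriceps smooth muscle-like cells, a level of 23.6 CPM (21.4 to 26.05), against 3.35 CPM (2.70 to 4.11) in FAP-like cells. Both genes lie head to head on chromosome X, with 1342 bases between their start sites. The partners Col4a3 and Col4a4, also head to head, were in FAP-like cells instead, at 22.6 and 56.8 CPM in quadriceps, and at 1.56 and 1.39 CPM in smooth muscle-like cells.

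Type VI chains were unequal in smooth muscle-like cells. Col6a3 had 147 CPM (142 to 153) in quadriceps and 88.2 CPM (64.3 to 118) in diaphragm, whereas Col6a1 had 19.1 and 17.6 CPM and Col6a2 22.7 and 17.6 CPM. The ratio of Col6a3 to Col6a2 was 6.49 (5.83 to 7.24) in quadriceps and 5.00 (2.41 to 11.6) in diaphragm. After thinning, 14.2% of quadriceps smooth muscle-like cells kept a Col6a3 UMI and 2.41% a Col6a2 UMI. In immune-like cells of quadriceps the ratio was 1.06 (0.505 to 2.25), near that of FAP-like cells. Col3a1 at 93.9 CPM was, by contrast, nearer to the 75.2 CPM of immune-like cells, though the counting intervals did not overlap. Col1a1 had 86.4 CPM against 25.4 CPM in immune-like cells, and Col1a2 139 against 26.3 CPM. The median cell had 14376 UMIs in the smooth muscle-like and 3744 in the immune-like class, so like CPM need not mean like free RNA per droplet. The part of free RNA in these 3 levels was not tested.

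Mitochondrial UMIs had a median of 17.3% per cell in quadriceps smooth muscle-like cells and 4.01% in FAP-like cells. Leaving these UMIs out of the total kept the counts of called chains at 1 higher and 15 lower. With a limit of 5% only 9 smooth muscle-like cells of quadriceps remained, and no value was given.

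The paired type IV genes Col4a1 and Col4a2 are transcribed in opposite directions from start sites that overlap on chromosome 8. The 22 bases shared by both transcripts' starts are given because this is the stretch from which the pair described here is read in both directions.

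Col4a2 and Col4a1 shared start, chr8:11312805-11312826, plus strand: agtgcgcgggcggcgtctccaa

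The ratio of Col4a1 to Col4a2 UMIs was nonetheless not constant. It was 2.14 (2.09 to 2.19) in quadriceps and 2.40 (2.33 to 2.48) in diaphragm FAP-like cells, and 1.33 (1.29 to 1.38) and 1.34 (1.06 to 1.69) in smooth muscle-like cells of these muscles. The intervals of the classes did not overlap in either muscle. In tenocyte-like cells it was 1.38 (1.11 to 1.72). The intervals of Schwann-like (1.61 to 2.28), endothelial-like (1.57 to 3.97) and satellite-like cells (2.12 to 4.003) overlapped that of FAP-like cells.

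**Figure D4:**
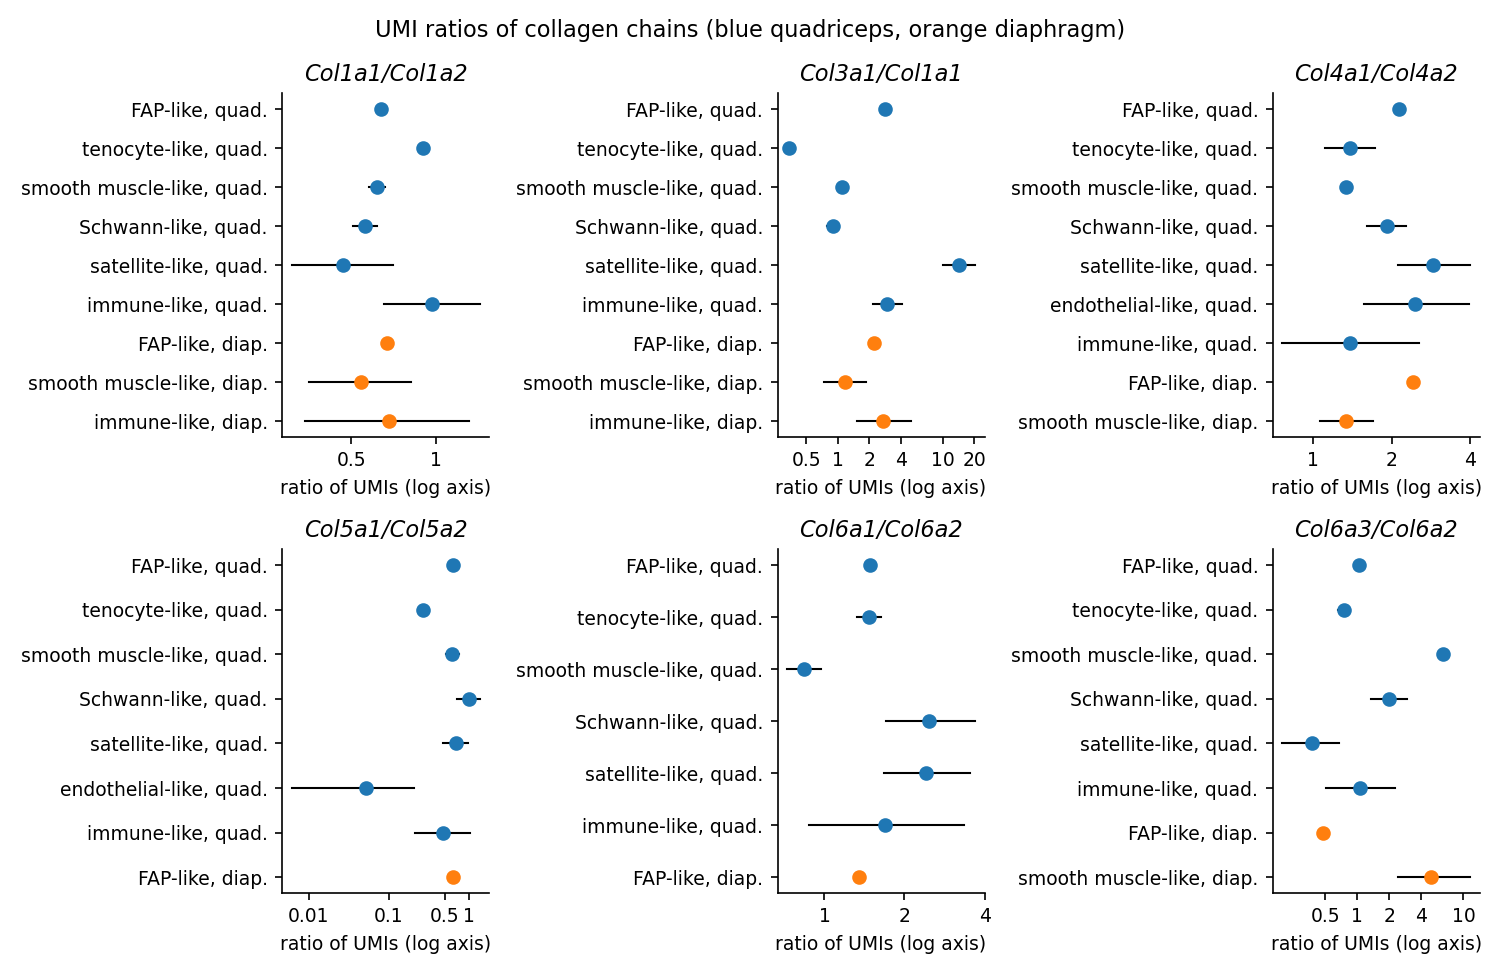
Ratios of UMIs between chains that share a trimer or a fibril, by class, on log axes, with points for the ratio and lines for 95% counting intervals, blue for quadriceps and orange for diaphragm. Smooth muscle-like cells stand to the right for Col6a3/Col6a2 (6.49 and 5.00) and satellite-like cells for Col3a1/Col1a1 (14.2).

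Schwann-like cells had 28 of 44 chains at 10 CPM or more, against 23 in quadriceps FAP-like cells. At 50 CPM or more the order was reversed, with 16 and 19 chains. The share of all genes at these limits was not computed for either class. Of 22 chains compared with FAP-like cells, 4 were higher, where 18% of 4084 genes were called higher, and 17 were lower, against 18.5% of genes. Col24a1, a minor fibrillar chain, had 74 UMIs, or 70.4 CPM (55.3 to 88.4), against 5 UMIs in all quadriceps FAP-like cells, and 0 UMIs in the smooth muscle-like, satellite-like, endothelial-like and immune-like cells of quadriceps. Col28a1, a chain known from basement membranes around Schwann cells of peripheral nerve, had 63.7 CPM (49.4 to 80.9) against 1.88 CPM, a ratio of 34.0. Col23a1, a membrane-spanning chain, had 63.7 CPM as well, a ratio of 10.9 (8.06 to 14.6), and was also seen in endothelial-like cells at 36.5 CPM. Col18a1 was higher at 155 CPM, a ratio of 2.05 (1.74 to 2.41), and this call was lost under 5 of the alternatives tried. In the 24 Schwann-like cells with at most 5% mitochondrial UMIs, Col24a1 was at 41.0 CPM and Col28a1 at 27.3 CPM, below the 50 CPM limit.

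The chains of type IX collagen, known from cartilage, were seen in the same class at lower levels. Col9a1 had 36 UMIs in Schwann-like cells, 34.2 CPM (23.98 to 47.4), and 1 UMI in all other classes of quadriceps. Col9a3 had 20 UMIs (19.0 CPM) and Col9a2 12 UMIs (11.4 CPM), so all 3 chains of the type IX trimer had UMIs. These were 20 of 37 Col9a3 UMIs and 12 of 82 Col9a2 UMIs of the quadriceps library, and 63 of the Col9a2 UMIs were in FAP-like cells (2.32 CPM). Of type I collagen, Col1a2 had 1085 CPM (1023 to 1150) and Col1a1 610 CPM (563 to 659). After thinning, 57.0% of Schwann-like cells kept a Col1a2 UMI, against 3.50% of immune-like cells. FAP markers summed to 4.21% of their FAP-like level in this class, with 0 of the 8 without UMIs, and their part was not tested. The ratio to the FAP-like level was 0.249 for Col1a2 and 0.0692 for Col3a1. The ratio of Col3a1 to Col1a1 was 0.891 (0.794 to 0.999), against 2.81 in FAP-like cells.

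The windows before the Col24a1 and Col28a1 start sites are given because both chains were far higher here than in FAP-like cells. Capitals mark ACAAAG, a sequence bound by SOX factors, which was searched on both strands together with the motifs above.

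Col24a1, chr3:145292222-145292471, plus strand: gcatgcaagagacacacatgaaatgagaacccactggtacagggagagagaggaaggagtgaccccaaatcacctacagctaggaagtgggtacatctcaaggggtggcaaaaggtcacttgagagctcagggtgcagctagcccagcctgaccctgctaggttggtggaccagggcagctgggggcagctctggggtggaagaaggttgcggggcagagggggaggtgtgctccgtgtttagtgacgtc
Col28a1, chr6:8192618-8192867, minus strand: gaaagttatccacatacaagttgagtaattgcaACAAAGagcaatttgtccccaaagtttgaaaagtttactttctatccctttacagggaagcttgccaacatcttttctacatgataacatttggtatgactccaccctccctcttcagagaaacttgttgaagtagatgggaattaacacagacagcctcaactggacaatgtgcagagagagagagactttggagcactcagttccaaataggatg

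ACAAAG was in the Col28a1 window, 217 bases before the start site, and not in that of Col24a1, where none of the 4 motifs was found. It was in 16.46% of all windows and in 4 of the 38 collagen windows.

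Satellite-like cells, the muscle stem cells marked by Pax7 and Myf5, had more UMIs of Col3a1 than of any other chain. Its level was 892 CPM (818 to 972), 37.3% of their collagen UMIs against 34.3% in FAP-like cells, whereas Col1a1 had 62.9 CPM and Col1a2 134 CPM. The ratio of Col3a1 to Col1a1 was 14.2 (10.2 to 20.4), against 2.81 in FAP-like and 2.96 in immune-like cells. After thinning, 58.1% of satellite-like cells kept a Col3a1 UMI and 1.08% a Col1a1 UMI, while in immune-like cells these shares were 9.63% and 2.84%. Of 19 chains compared with FAP-like cells, 0 were higher, where 11.8% of 3721 genes were, and 18 were lower, against 23.6% of genes. Col18a1, at 42.5 CPM, was within 2-fold.

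Next in level were Col4a1 (270 CPM), Col6a1 (177 CPM), and Col15a1 and Col5a2 (134 CPM each). The ratio of Col15a1 to its FAP-like level was 0.281, while the FAP markers summed to 7.97% of theirs with 0 of the 8 without UMIs. The markers were uneven. Dpt, Htra3 and Cd34 had 272, 246 and 189 CPM, against 1215, 676 and 1262 CPM in FAP-like cells. Entpd2 had 45.9 against 440 CPM. Pdgfra, Ly6a, Clec3b and Lum had 5.10, 13.6, 28.9 and 18.7 CPM, against 502, 2491, 2141 and 1550 CPM. The part of FAP transcripts in these levels was not tested. 3 chains under 50 CPM peaked in this class. Col17a1 had 4 UMIs in it, 6.80 CPM. Col19a1, a fibril-associated chain, had 25 UMIs, 42.5 CPM (27.5 to 62.7), against 1 UMI in all quadriceps FAP-like cells, and Col26a1 had 27 UMIs, 45.9 CPM (30.2 to 66.8), against 2.24 CPM. Col26a1 was also in Schwann-like cells, at 26.6 CPM. Under 4 of the alternatives tried, 1 or 2 chains were called higher in satellite-like cells.

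Endothelial-like cells of quadriceps, 52 cells with 266 collagen UMIs, served as a second vascular reference. Col4a1 had 419 CPM (326 to 531), Col18a1 365 CPM (278 to 469) and Col4a2 170 CPM (113 to 246). Col5a2 had 38 UMIs, 231 CPM (163 to 317), whereas its partner Col5a1 had 2 UMIs, a ratio of 0.0526 (0.00615 to 0.204). Col8a1 had 170 CPM (113 to 246), and Col6a3 had 0 UMIs, at least 51.1 times lower than in FAP-like cells with the floor of 3 counts. Of 19 chains compared, 1 was higher (Col18a1), where 23.6% of 4329 genes were called higher, and 17 lower, against 16.8%.

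The FAP-like cells were then divided by marker pairs into 6 groups, each cell needing 3 or more UMIs of a pair and more than of any other pair. In quadriceps and diaphragm the Dmkn group (Dmkn and Sbsn) held 284 and 35 cells, the Prg4 group (Prg4 and Meox1) 673 and 197, and the Cxcl14 group (Cxcl14 and Hsd11b1) 826 and 425. The Gdf10 group (Gdf10 and Sfrp1) held 130 and 261 cells, the Has1 group (Has1 and Tnfaip6) 72 and 307, and the Tnmd group (Tnmd and Thbs4) 91 and 758. Each group was compared with all other FAP-like cells of its muscle, and a chain was followed where it was called in the same direction in both. This was so for 4 higher and 12 lower calls over the 6 groups. The share of all genes called alike in both muscles was not computed, for these counts or for single groups. The groups are ranges on marker UMIs and not cell types.

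The Dmkn group had 0 chains called higher in either muscle, where 6.25% of genes were in quadriceps and 6.72% in diaphragm. In quadriceps 10 of 19 chains were lower, where 7.1% of 3439 genes were called lower, and in diaphragm 12 of 19, where 6.69% of 3438 genes were. 8 were lower in both muscles: Col4a1, Col4a2, Col5a3, Col6a2, Col6a3, Col6a6, Col8a1 and Col15a1. Col15a1 had the widest gap, at 16.0 CPM in the quadriceps and 116 CPM in the diaphragm group, log2 differences of -5.01 and -2.80. Col4a1 had 120 and 192 CPM, log2 differences of -3.09 and -1.55. The fibrillar chains Col1a1, Col1a2 and Col5a1 lay within 2-fold of the other FAP-like cells in both muscles, and Col14a1 had log2 differences of 0.66 and 0.30.

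Of the 8 chains lower in the Dmkn group, 6 were called higher in the Cxcl14 group of quadriceps and 0 in that of diaphragm. The Cxcl14 group, 32.5% of quadriceps FAP-like cells, was among the cells that the Dmkn group was compared with, and the reverse. Opposite calls are thus partly built in, and their share over all genes was not computed. In quadriceps 9 of 19 chains were higher, where 2.64% of 3368 genes were called higher, led by Col15a1 at 989 CPM (log2 difference 2.003), Col6a6 at 156 CPM (1.93) and Col4a1 at 1711 CPM (1.64). In diaphragm, Col4a4 was the 1 higher chain of 20, where 1.15% of 3122 genes were called higher, while Col4a1, Col4a2 and Col15a1 had log2 differences of 0.83, 0.77 and 0.79. The Col4a4 call, the 1 shared by both muscles, was lost in diaphragm with a pseudocount of 10 CPM (0.99). Col14a1 was lower in both muscles, at 290 CPM (-1.11) and 308 CPM (-1.37), the 1 lower chain of quadriceps, where 3.27% of genes were called lower. It was 1 of 2 in diaphragm, where 1.76% were, the other being Col12a1 at 19.1 CPM, a log2 difference of -2.75.

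In the Tnmd group 3 chains were called higher in both muscles. Col8a1 reached 1156 CPM in quadriceps (log2 difference 4.17) and 923 CPM in diaphragm (1.78). Col12a1 had 167 and 207 CPM (2.45 and 1.87), and Col8a2 had 74.2 and 82.0 CPM (2.98 and 2.17). These were 3 of the 6 chains called higher in quadriceps, where 3.54% of 3364 genes were, and all 3 called higher in diaphragm, where 1.41% of 3127 genes were. Col11a1 was called in quadriceps alone, with 76 UMIs in 91 cells, or 60.6 CPM, and 80 UMIs in 758 diaphragm cells, or 7.94 CPM. The markers of this group include Tnmd and Thbs4, which are also tenocyte markers, so a FAP-like cell with tenocyte transcripts falls here by construction.

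The Gdf10 and Has1 groups differed in single chains. Col8a1 was lower in both groups of both muscles, with log2 differences from -1.45 to -1.81. Its level in quadriceps and diaphragm was 36.7 and 179 CPM in the Gdf10 group and 42.0 and 165 CPM in the Has1 group. The other FAP-like cells here included the Tnmd group, at 1156 and 923 CPM. The part of the Tnmd group in these Col8a1 differences was not tested. Col15a1 was lower in the Has1 group of both muscles, at -1.15 in each, and with at most 5% mitochondrial UMIs the quadriceps value was -0.98 and no longer called. Col6a5 reached 50 CPM only in diaphragm, where it had 319 CPM in the Gdf10 group, a log2 difference of 2.24, and 165 CPM in the Has1 group (0.99). It had 26.1 CPM in the diaphragm Tnmd group (-2.35), the 1 chain called lower there, where 1.69% of genes were, and 0 chains were lower in the quadriceps Tnmd group, where 2.26% were. Of the 2529 diaphragm UMIs, 263 were in this group and 954 in the Gdf10 group. Col6a5 had been named together with Gdf10 and Sfrp1 in earlier results of these data. Its high level in the Gdf10 group was thus partly set in advance and is no independent result. In the Gdf10 group 1 of 19 chains was higher in diaphragm, where 1.32% of 3100 genes were, and 0 of 20 in quadriceps, where 2.09% of 3303 genes were. 2 chains were lower in each muscle, where 1.82% of genes were in quadriceps and 1.68% in diaphragm. The Has1 group had 0 chains higher, where 1.8% of genes were in quadriceps and 3.04% in diaphragm. In it 4 of 19 chains were lower in quadriceps, where 3.43% of genes were, and 2 of 19 in diaphragm, where 1.74% were. The Prg4 group had 0 chains higher, where 1.05% of genes were in quadriceps and 0.128% in diaphragm. It had 3 of 19 lower in quadriceps (Col4a4, Col4a5 and Col6a6), where 3.03% of genes were, and 1 of 19 in diaphragm (Col6a5), where 0.481% were. The latter call was lost with a pseudocount of 10 CPM (-0.93).

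**Figure D5:**
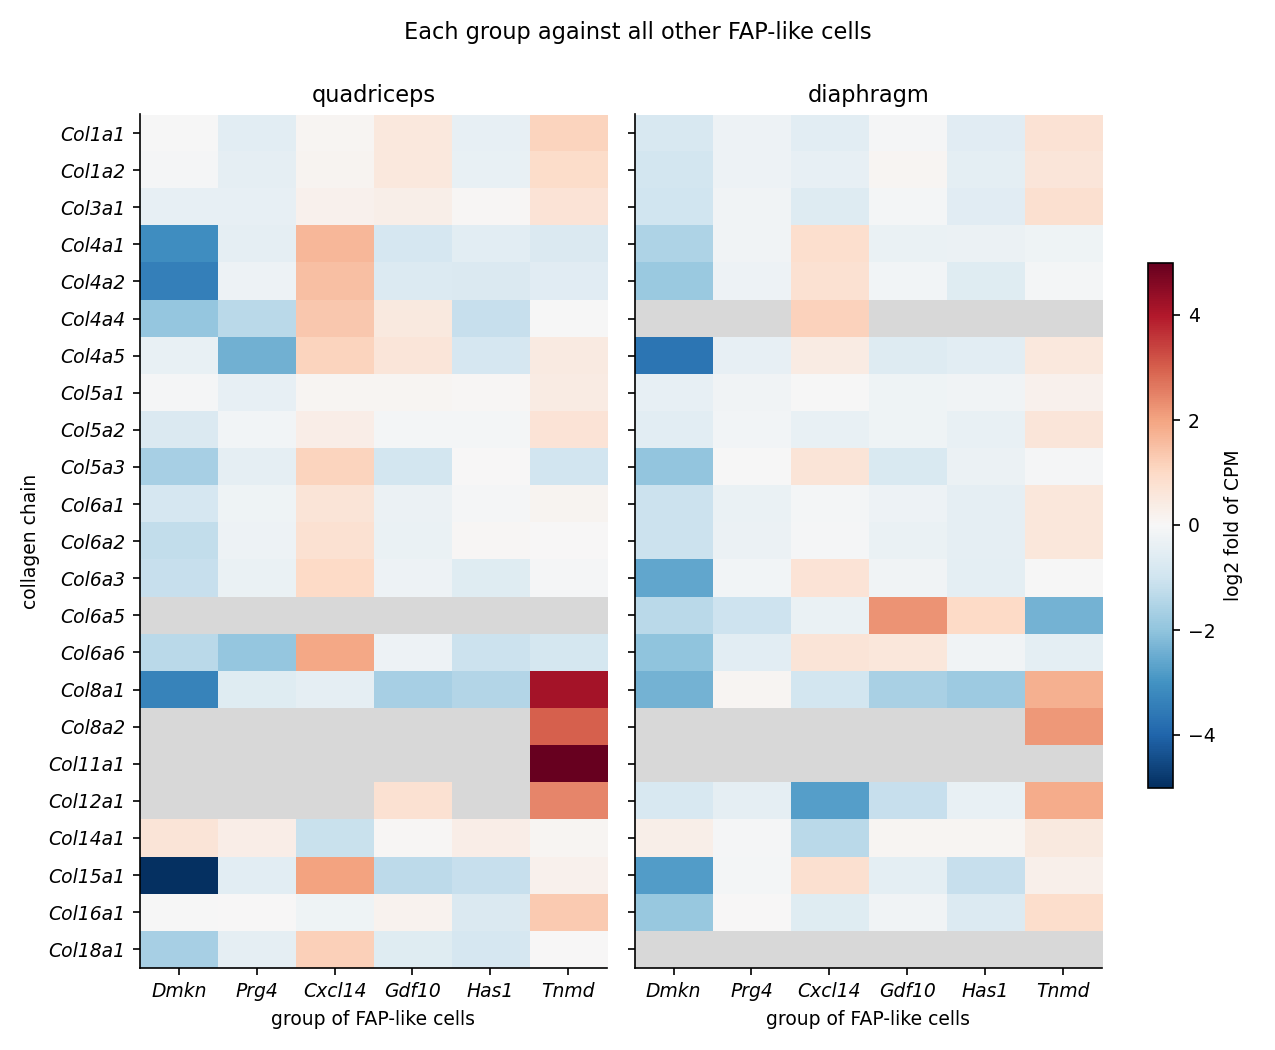
Log2 difference of CPM plus 1 between each group of FAP-like cells and all other FAP-like cells of the same muscle, for chains with at least 50 CPM in the higher group, red for higher and blue for lower on a scale that ends at 5 in each direction, with grey where a chain was not compared. The Dmkn column is blue for Col4a1, Col4a2, Col6a3 and Col15a1 in both muscles, and the Tnmd column is red for Col8a1, Col8a2 and Col12a1.

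The groups took different shares of FAP-like cells in the muscles, 3.58% in quadriceps and 35.4% in diaphragm for the Tnmd group, so the muscles were also compared within each group. Col6a5 was higher in diaphragm by 2-fold or more in 3 of 3 groups in which it could be compared, with log2 differences from 3.51 in the Cxcl14 group to 7.53 in the Gdf10 group, the latter resting on 1 quadriceps UMI (0.733 CPM). Col8a1 was so in 5 of 6 groups, and in the Tnmd group it lay at -0.32. Col12a1 was higher in 4 of 5 groups, past 2-fold in 2 (Has1 at 2.23 and Prg4 at 1.68), and had 0.31 in the Tnmd group. Col15a1 was higher in 6 of 6 groups (0.30 to 2.78) and Col6a6 in 5 of 5 (0.30 to 1.96), though neither was past 2-fold over all FAP-like cells. Col18a1 was lower in diaphragm in 4 of 4 groups, past 2-fold in 3, and Col5a3 in 6 of 6 groups, past 2-fold in 3. Col6a3 was lower in 6 of 6 groups, with log2 differences from -2.35 to -0.69. The same counts of groups were not made over all genes, so no background share stands beside them.

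Genes that modify, secrete and cross-link collagen were followed as a list of 25. Between tenocyte-like and FAP-like cells 19 were compared, with 4 higher, where 7.09% of all genes were, and 2 lower, where 12% were. Lox, which cross-links fibrils, had 1310 CPM against 119 CPM, and P3h2, a prolyl hydroxylase, 126 CPM against 1.91 CPM. Plod2, a lysyl hydroxylase whose product is used in stable cross-links, had 258 CPM against 60.04 CPM. In quadriceps smooth muscle-like cells 17 of 17 were lower, where 30.9% of all genes were. In Schwann-like cells 13 of 17 were lower, against 18.5% of genes, and in satellite-like cells 14 of 17, against 23.6%. Serpinh1, the collagen chaperone, kept 366.5 CPM in smooth muscle-like and 557 CPM in satellite-like cells, against 1282 CPM in FAP-like cells. Between muscles, Pcolce2, an enhancer of procollagen cleavage, was the 1 gene of 19 called in FAP-like cells, where 3.11% of all genes were called lower in diaphragm and 3.68% higher, at 845 CPM in quadriceps and 409 CPM in diaphragm.

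Of 10 collagen receptor genes, 4 were compared between FAP-like cells of the muscles and 0 were called, against the same 3.68% and 3.11% of genes. Smooth muscle-like cells of quadriceps had 2 of 5 higher than FAP-like cells, where 17.8% of all genes were, and 3 lower, where 30.9% were. Itga1, the alpha chain of a collagen-binding integrin, had 80.7 CPM against 10.9 CPM, and Itgb1, its beta chain, had 956 against 382 CPM. Ddr2 and Itga11, receptors for fibrillar collagen, went the other way, at 54.7 against 327 CPM and 0.753 against 74.0 CPM. Tenocyte-like cells had 0 of 4 called, where 7.09% of genes were called higher and 12% lower.

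The chains that stayed under 50 CPM are given by where they peaked. Col27a1 was spread over Schwann-like (30.4 CPM), FAP-like (27.9 CPM) and smooth muscle-like cells (16.2 CPM). Col2a1, the main chain of cartilage, had 14 UMIs in tenocyte-like cells, 17.1 CPM (9.36 to 28.7). Col6a4, Col7a1, Col10a1, Col17a1, Col20a1 and Col25a1 were below 10 CPM in every class of 20 or more cells, with between 1 and 88 UMIs each over the classes.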

How the data were processed

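Counts were deposited by the authors as raw UMI counts per gene and cell barcode, made with Cell Ranger 3.0.0 per the labels, with barcodes already called as cells and reads aligned to mm10. Seurat is also named in the submitters' processing notes. Cells of several animals were combined per tissue before 1 library was made of each. From these counts, barcodes with at least 1000 UMIs and below the median log10 UMIs plus 3 scaled median absolute deviations (65491.8 in quadriceps, 31727.8 in diaphragm) were kept, 5010 and 2430 barcodes, with no mitochondrial limit. Doublets were not removed in the values reported. Scrublet marked 95 (1.84%) and 3 (0.120%) barcodes, and at the latter rate the caller may not have worked. UMIs were summed per class, and log2 differences were taken of CPM plus 1. Intervals are exact 95% Poisson for levels, and exact binomial for shares and for ratios of counts, and cover counting error only. Cells are not replicates and each tissue had 1 library, so no p-value was computed. Thinning drew 1000 UMIs per cell without replacement, and no kept cell was shallower.

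The 44 chains, the markers and the lists of 10 receptor and 25 biosynthesis genes were chosen with earlier results of these data known. Chains with at least 50 CPM in any class of 20 or more cells were named. A value of 0 was given a floor of 3 counts. The scripts were tested on simulated data. Alternatives were a mitochondrial limit of 5%, no upper UMI limit, Scrublet, a marker threshold of 1 UMI, a margin of 2 markers, Leiden clusters, mean per-cell CPM, a pseudocount of 10 CPM, limits of 10 or 50 CPM and totals without mitochondrial genes. Python 3.11.15, numpy 2.4.6, pandas 2.3.3, scipy 1.17.1, scanpy 1.11.5 and matplotlib 3.10.9 were used. Gene positions and exons are from GENCODE, and start windows and distances between start sites from RefSeq, both on GRCm38.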

Additional observations from a re-analysis of the deposited data

Results flagged for a closer look

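Col12a1 in the Gdf10 group of FAP-like cells lay on opposite sides of the other FAP-like cells in the muscles. The log2 difference was 0.7745 in quadriceps, from 60.1 against 34.7 CPM, and -1.163 in diaphragm, from 53.2 against 120 CPM. Within the Gdf10 group itself the log2 difference of diaphragm over quadriceps was -0.17. The other FAP-like cells included the Tnmd group, which had 167 CPM of Col12a1 in quadriceps and 207 CPM in diaphragm. That group was 3.58% of FAP-like cells in quadriceps and 35.4% in diaphragm. Its part in the opposite directions, and the difference between the muscles, were not tested.

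Barcodes that joined no class also held collagen UMIs. In quadriceps the 347 such barcodes had 0.691% of their UMIs in collagen chains (95% interval 0.678 to 0.704), and in diaphragm the 83 such barcodes had 1.084% (1.05 to 1.12). Both exceeded the immune-like shares of 0.0241% and 0.0181%. They were 30.2% and 47.5% of the FAP-like share, with 26 and 21 chains at 10 CPM or more.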

How the results depend on the processing

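Of 221 counts of chains recomputed under the alternatives, 205 stayed within 1.5 times the reported count and 16 did not. With a limit of 50 CPM in place of 10 CPM, the number of chains per class went from 14 to 8 in smooth muscle-like, 28 to 16 in Schwann-like and 14 to 6 in endothelial-like cells of quadriceps, and from 8 to 1 and 6 to 1 in immune-like cells of quadriceps and diaphragm. With classes from clusters the immune-like counts went from 8 to 13 and from 6 to 17. With chains of at least 10 CPM compared, those higher than in FAP-like cells went from 1 to 2 in smooth muscle-like cells of each muscle, from 4 to 9 in Schwann-like and from 0 to 2 in satellite-like cells, and the calls lower in both muscles over the FAP-like groups from 12 to 21. With at most 5% mitochondrial UMIs the Schwann-like count went from 4 to 1. The satellite-like count went from 0 to 1 with a margin of 2 markers, to 1 with clusters and to 2 with mean per-cell CPM. The cause was not tested. Of 1447 log2 differences of called chains, 1431 stayed called, 16 fell below the fold or the level limit, 5 of them of Col18a1 in Schwann-like cells, and 0 changed sign. Of 1863 levels, 300 moved outside their counting interval.

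The 5% mitochondrial limit left under 20 tenocyte-like, smooth muscle-like, satellite-like and endothelial-like cells in quadriceps and 1 smooth muscle-like cell in diaphragm, and clusters formed no tenocyte-like class, so these gave no value. Gate and clusters put 96.6% of 4663 quadriceps and 98.7% of 2347 diaphragm cells in the same class. No paired analysis was possible because each tissue had 1 library and no result comes from a test.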

Other observations

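Per-cell levels within the FAP-like class were also summarised. In quadriceps the median cell had 6139 CPM of Col3a1, with quartiles of 4124 and 9434 CPM. For Col15a1 the quartiles were 0 and 746 CPM around a median of 214 CPM in quadriceps, and 330 and 1182 CPM around a median of 693 CPM in diaphragm. The median cell had 0 CPM of Col8a1 in quadriceps and 222 CPM in diaphragm. These quartiles are over cells of unequal depth and include counting error.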
